A study of Mus musculus with 8 samples.

Results

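The DNA repair and replication checkpoint genes described here are 38 genes of homologous recombination, the Fanconi anemia pathway, mismatch recognition, the damage checkpoint and the stalled replication fork. They were chosen by symbol, with earlier results of these data known. All 38 were found among the 53090 genes of the table and passed the filter on low counts, which left 17090 genes. In P7 sciatic nerves, 23 of the 38 were higher in *Nae1* cKO than in control nerves, 0 were lower and 15 did not pass the test. *Rad51ap1*, *Brca1*, *Exo1*, *Brip1*, *Fancd2*, *Clspn* and *Fanci* rose more than 2-fold, while *Brca2*, *Atr*, *Atrip*, *Parp1*, *Rad51c*, *Xrcc2* and *Xrcc3* stayed within 0.12 log2 units of the control level, without passing the test.

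The study profiled total RNA of sciatic nerves from 7-day-old mice, 4 libraries labelled WT (here control) and 4 labelled *Nae1* cKO. *Nae1* encodes a subunit of the E1 enzyme that activates the ubiquitin-like protein NEDD8. *Nae1* cKO mice carried a Schwann cell Cre transgene and 2 floxed *Nae1* alleles (*Nae1* f/f). Controls were littermates without Cre and with 1 or 2 floxed alleles (*Nae1* f/+ or f/f), so a floxed allele was present in both groups and Cre in the mutants. The transgene recombines exon 4 of *Nae1* in Schwann cells, so the fibroblasts, macrophages, endothelium and other cells of the nerve kept the gene. Each library is taken as 1 mouse from the design text, and p-values measure the spread between these libraries. Values are CPM (counts per 1000000 after TMM scaling, a scaling by 1 factor per library that assumes most genes do not change). In each list of 4 values the control nerves come in the order K1, L3, L4, L9 and the *Nae1* cKO nerves in the order K2, L1, L5, L8.

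When a replication fork stalls or a chromosome breaks, single-stranded DNA is coated by the RPA complex, and the kinases ATR and ATM pass the signal to CHK1 and CHK2. The Fanconi anemia proteins act at crosslinks between the DNA strands, and BRCA1, BARD1, PALB2 and BRCA2 act in repair from the sister chromatid. Many of these proteins work during DNA replication, and in the postnatal nerve immature Schwann cells divide before they form myelin.

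The libraries held 13508752 to 14766770 estimated counts in the controls and 12962798 to 13855366 in *Nae1* cKO nerves. *Nae1* itself stood at 89.8, 81.3, 77.7 and 82.7 CPM in the control and 57.1, 57.2, 48.9 and 43.8 CPM in the *Nae1* cKO nerves, and the groups did not overlap (log2 fold change −0.68, SE 0.10; edgeR adjusted p = 2.77e-04; two-sided exact permutation p = 0.0286, the smallest that 4 against 4 allows). The 9 Schwann cell markers were all detected in every nerve. The *Nae1* cKO nerve K2 stood apart, where the noncoding RNA 7SK took 4.70% of all counts, while its share was 1.94% to 2.66% elsewhere. Over all 17090 genes the median log2 fold change was 0.0066. In a whole nerve, more cells of a type and more RNA per cell cannot be told apart.

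A gene was called when its adjusted p was under 0.05 (edgeR's quasi-likelihood test, Benjamini-Hochberg adjustment over all genes). Of all genes tested, 14.1% were called higher in the mutant and 12.3% lower, 26.4% in all. Among the 38 repair and checkpoint genes 60.5% were higher and 0 lower. At an unadjusted p under 0.05, edgeR gave 26 higher and 0 lower, against 19.4% and 17.9% of all genes, and 0 of the 38 were lower under any of the 21 alternatives, DESeq2 and limma among them. The median log2 fold change of the 38 genes was 0.62, and 36 of the 38 fold changes were above 0. The lowest were *Fancg* at −0.14 and *Xrcc3* at −0.04, neither of which passed the test, and both turned positive with library totals in place of TMM. In 19 of the 38 genes all 4 *Nae1* cKO nerves lay above all 4 control nerves, as in 14.9% of all genes tested, and in 0 they all lay below, against 13.7%. A rise of more than 2-fold past the same test was seen in 7 of the 38 and in 4.25% of all genes, and such a fall in 0 of the 38 and in 2.49% of all genes. When control K1 and control L4, the nerves richest in muscle RNA, were left out, 11 of the 38 were higher: *Brca1*, *Rad51ap1*, *Fancd2*, *Fancm*, *Brip1*, *Blm*, *Exo1*, *Rpa2*, *Topbp1*, *Tipin* and *Rad18*, while 7.17% of all genes were. With limma on TPM the count was 12, against 7.59% of all genes. In the edgeR fit without *Nae1* cKO K2 it was 26, against 15.7%, and with the letter of the sample names (K or L, of unstated meaning) as a term also 26, against 16.4%.

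**Figure D1:**
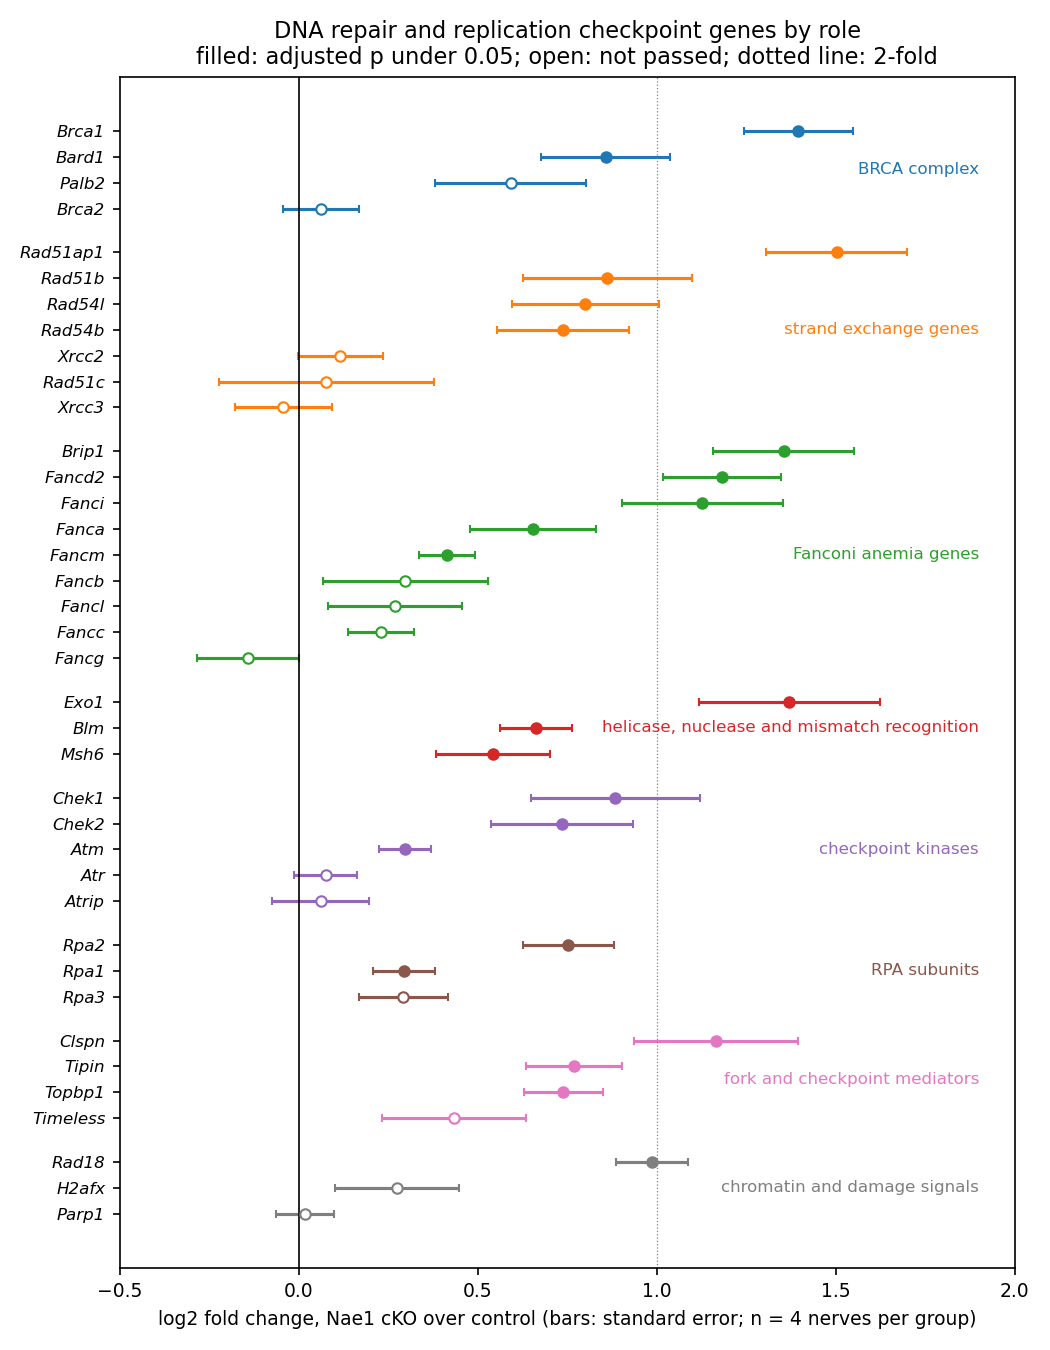
Log2 fold change of each of the 38 genes, *Nae1* cKO over control, in 8 groups by role. Points are edgeR estimates with their standard errors (4 nerves per group), filled where the adjusted p was under 0.05. The 23 filled points lie to the right of 0, and each role holds at least 1 filled point. Of the filled points 7 lie beyond the dotted 2-fold line.

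The genes that rose most were expressed at low levels in the control nerves. Per kilobase of effective transcript length, control levels ran from 1.06 CPM for *Rad51b* to 29.9 CPM for *Parp1*, with a median of 5.37 CPM. All 7 genes that rose over 2-fold were among the 19 below that median, where the median log2 fold change was 0.86 and 13 genes were higher. Among the 19 genes above it, 10 were higher and the median log2 fold change was 0.30. The control level enters both quantities, so the groups below and above the median are described without a test. The rarest member by counts, *Rad51c*, averaged 33.1 counts per library, and the most abundant, *Parp1*, 1218.

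E2F transcription factors switch on many genes of S phase through a short promoter element, and the promoters of the 38 genes were searched for its letters. RefSeq (GRCm38.p6) gave a window from 250 bases before to 50 bases after an annotated start for 32 of the 38. *Rad54b*, *Xrcc2*, *Fancd2*, *Exo1*, *Tipin* and *H2afx* had none. For *Fanci*, *Fancl*, *Chek1*, *Fancc* and *Timeless* the only window lay inside the gene. That of *Fanci*, a plus-strand gene starting at 79391929, was chr7:79392088-79392387. That of *Fancl*, a plus-strand gene starting at 26386135, was chr11:26386834-26387133. That of *Chek1*, a minus-strand gene ending at 36727065, was chr9:36726609-36726908. That of *Fancc*, a minus-strand gene ending at 63497278, was chr13:63431696-63431995. That of *Timeless*, a plus-strand gene starting at 128232065, was chr10:128237816-128238115. The element was taken as TTTCCCGC, TTTCGCGC, TTTGCCGC or TTTGGCGC on either strand. It was present in 8 of 32 windows (25%), against 4.51% of the 10957 tested genes with a window. Within the 250 bases before the start it was present in 5 of 32 (15.6%), against 3.75%. The 8 genes were *Bard1*, *Msh6*, *Chek2*, *Topbp1* and *Clspn*, which were higher in *Nae1* cKO nerves, and *Brca2*, *Rad51c* and *Fancg*, which did not pass the test. Whether genes that rose held the element more often than the others was not tested. *Fancg*, which had the lowest log2 fold change of the 38 (−0.14), held it 52 to 45 bases before the start, and its stretch is not shown. The stretches around the element of *Bard1*, *Chek2* and *Topbp1*, which rose, and of *Brca2*, which did not pass, are shown on the coding strand with the element in capitals:
*Bard1* (chr1:71103144-71103211, minus strand; element 209 to 202 bases before the start): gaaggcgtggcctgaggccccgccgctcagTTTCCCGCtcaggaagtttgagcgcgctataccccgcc
*Chek2* (chr5:110839801-110839868, plus strand; element 152 to 145 bases before the start): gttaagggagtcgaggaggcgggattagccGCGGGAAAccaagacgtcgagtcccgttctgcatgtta
*Topbp1* (chr9:103305168-103305235, plus strand; element 129 to 122 bases before the start): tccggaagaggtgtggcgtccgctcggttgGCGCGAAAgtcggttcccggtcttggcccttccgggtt
*Brca2* (chr5:150522423-150522490, plus strand; element 168 to 161 bases before the start): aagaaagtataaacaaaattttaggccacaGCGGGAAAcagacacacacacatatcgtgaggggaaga
The same 8 letters, on the same strand, stood before *Chek2*, which rose, and *Brca2*, whose log2 fold change was 0.06. The CHR element TTTGAA, which marks many genes of mitosis, was found on either strand in 2 of 32 windows (6.25%) against 14.6% of tested genes, and the CCAAT box in 20 of 32 (62.5%) against 42.5%. No form of 1 of these motifs contains another. The windows of *Fanci*, *Fancl*, *Chek1* and *Timeless*, which lay inside the gene, held none of these motifs. A match describes the sequence and does not show that a factor binds there.

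BRCA1 and BARD1 form a ubiquitin ligase that starts recombination at breaks, and PALB2 bridges it to BRCA2, which acts at the strand exchange step. The RNAs of both subunits of the ligase rose. *Brca1* (chr11:101488764-101551955, minus strand) stood at 14.2, 20.4, 15.2 and 16.9 CPM in the control and 33.2, 52.7, 45.8 and 43.8 CPM in the *Nae1* cKO nerves. The groups did not overlap, and the rise was 2.63-fold (log2 fold change 1.40, SE 0.15, edgeR adjusted p = 3.89e-05). *Bard1* stood at 4.89, 7.75, 6.60 and 7.47 CPM in the control and 8.88, 12.9, 12.9 and 13.7 CPM in the *Nae1* cKO nerves, again without overlap (log2 fold change 0.86, SE 0.18, edgeR adjusted p = 0.00374). In the *Nae1* cKO group the nerve K2 lay well below the other 3, which fell within 12.9 to 13.7 CPM. *Brca2* ran from 28.5 to 35.3 CPM in control and from 30.7 to 39.6 CPM in *Nae1* cKO nerves, with a log2 fold change of 0.06 and a 95% interval of −0.17 to 0.295. *Palb2* gave 0.59 (edgeR adjusted p = 0.0570) with overlapping groups, and passed without *Nae1* cKO K2 or control L9, and with the sample letter as a term. The RNAs of the 2 partners of the ligase thus rose and *Brca2*, further along the same pathway, did not pass the test.

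RAD51AP1 stimulates strand exchange, RAD54L and RAD54B are motor proteins that help a broken end invade the sister duplex, and RAD51B, RAD51C, XRCC2 and XRCC3 are related proteins that assist the same step. *Rad51ap1* (chr6:126923050-126939587, minus strand) had the largest log2 fold change of the 38. It stood at 4.602, 6.01, 4.16 and 5.24 CPM in the control and 9.48, 18.0, 14.2 and 15.1 CPM in the *Nae1* cKO nerves, without overlap, a 2.83-fold rise (log2 fold change 1.50, SE 0.20, edgeR adjusted p = 0.000149). *Rad54b* stood at 6.65, 6.59, 7.75 and 8.58 CPM in the control and 8.66, 16.4, 12.2 and 11.9 CPM in the *Nae1* cKO nerves (log2 fold change 0.74, SE 0.19, edgeR adjusted p = 0.0110). K2 was higher than the highest control by less than 0.1 CPM, and *Fsbp*, which lies within *Rad54b* on the same strand, could share reads with it. *Rad54l* rose by 0.80 log2 units and *Rad51b* by 0.86 (edgeR adjusted p = 0.0132 and 0.0177), the second call being lost without *Nae1* cKO L1. In *Rad54l* the groups overlapped, with K2 at 11.2 CPM inside the control range of 10.1 to 12.5 CPM. The other related proteins' genes did not pass: *Xrcc2* gave 0.12 (95% interval −0.14 to 0.37), *Rad51c* 0.08 (−0.58 to 0.73) and *Xrcc3* −0.04 (−0.34 to 0.25).

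Of the 9 Fanconi anemia genes 5 rose. FANCD2 and FANCI form the clamp that is ubiquitinated at a crosslink, and BRIP1 (FANCJ) is the helicase that binds BRCA1. *Brip1* (chr11:86058138-86201193, minus strand) stood at 7.23, 10.6, 6.81 and 10.01 CPM in the control and 15.1, 25.7, 25.7 and 22.2 CPM in the *Nae1* cKO nerves, a 2.56-fold rise without overlap (log2 fold change 1.35, SE 0.20, edgeR adjusted p = 0.000356). *Fancd2* (chr6:113531682-113597017, plus strand) stood at 7.45, 9.63, 7.75 and 8.82 CPM in the control and 13.3, 21.8, 21.6 and 19.7 CPM in the *Nae1* cKO nerves, also without overlap (log2 fold change 1.18, SE 0.16, edgeR adjusted p = 0.000229). *Fanci* (chr7:79391929-79450264, plus strand) stood at 5.19, 9.34, 5.88 and 5.403 CPM in the control and 10, 17.2, 12.4 and 16.9 CPM in the *Nae1* cKO nerves, and its lowest *Nae1* cKO nerve, K2, lay just above the highest control, L3 (log2 fold change 1.13, SE 0.23, edgeR adjusted p = 0.00308). The RNAs of both partners of the clamp and of their BRCA1-bound helicase therefore rose, by 1.13 to 1.35 log2 units. *Fancm*, the translocase that recruits the pathway to DNA, was higher by a smaller step, from 44.5 to 49.2 CPM in the controls to 56.4 to 66.3 CPM, with no overlap (log2 fold change 0.41, SE 0.08, edgeR adjusted p = 0.00210). The ligase that ubiquitinates the clamp is built from a core of several subunits. Of these *Fanca* was higher (log2 fold change 0.66, SE 0.18, edgeR adjusted p = 0.0165) with K2 inside the control range, a call lost without control K1, *Nae1* cKO L1 or *Nae1* cKO L5. *Fancc* (0.23, passed without K2 and with the sample letter as a term), *Fancb* (0.30), *Fancl* (0.27, the catalytic subunit) and *Fancg* (−0.14) did not pass. The clamp genes and *Brip1* thus rose over 2-fold, and of the 5 core subunits among the 38 genes *Fanca* passed the test. *Fanca*, *Fancc*, *Fanci* and *Fancl* overlap a neighbouring gene on the opposite strand, and the strand setting of the counting is not given in the sources used here, so their counts are uncertain to that extent, as are those of *Rad54l*, *Xrcc3* and *Msh6*, and of *Atrip*, which overlaps *Trex1* on the same strand. *Fancc* also overlaps the noncoding *Gm16907* on its own strand, over 7547 bases, which a strand setting would not separate.

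BLM is the helicase that unwinds recombination intermediates, EXO1 the nuclease that resects DNA ends and acts in mismatch repair, and MSH6 a mismatch recognition protein. All 3 rose. *Blm* stood at 15.7, 15.4, 17.1 and 16.3 CPM in the control and 23.3, 25.8, 28.9 and 24.2 CPM in the *Nae1* cKO nerves, with little spread in either group and no overlap (log2 fold change 0.66, SE 0.10, edgeR adjusted p = 0.0004). *Exo1* (chr1:175880581-175913489, plus strand) stood at 4.16, 7.53, 5.81 and 6.44 CPM in the control and 8.43, 17.5, 19.0 and 16.9 CPM in the *Nae1* cKO nerves (log2 fold change 1.37, SE 0.25, edgeR adjusted p = 0.00208). Its lowest *Nae1* cKO nerve, K2, exceeded the highest control by less than 1 CPM, while the other 3 were at least 16.9 CPM. *Msh6* was higher by 0.54 log2 units (edgeR adjusted p = 0.0258) with K2 at 32.2 CPM inside the control range of 30.9 to 36.9 CPM. Its call was lost when any nerve other than control L9 or *Nae1* cKO K2 was left out.

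Of the 5 checkpoint kinase genes 3 were higher. *Atr* and *Atrip*, the kinase and the partner that brings it to RPA-coated DNA, gave log2 fold changes of 0.08 (95% interval −0.12 to 0.27) and 0.06 (−0.24 to 0.36) and did not pass. *Atm*, the kinase that responds to double-strand breaks, stood at 62.5, 66.8, 66.6 and 65.5 CPM in the control and 84.6, 84.0, 78.7 and 73.7 CPM in the *Nae1* cKO nerves. It rose by a small step with no overlap (log2 fold change 0.30, SE 0.07, edgeR adjusted p = 0.0101), and K2 was the highest nerve of its group. *Chek1*, the effector kinase below ATR, stood at 3.65, 6.01, 3.73 and 5.64 CPM in the control and 5.67, 11.6, 8.57 and 9.27 CPM in the *Nae1* cKO nerves, where K2 fell within the control range (log2 fold change 0.88, SE 0.24, edgeR adjusted p = 0.0154). *Chek2*, the effector below ATM, ran from 3.16 to 4.996 CPM in control and from 5.15 to 8.43 CPM in *Nae1* cKO nerves (log2 fold change 0.74, SE 0.20, edgeR adjusted p = 0.0160). The effector kinase genes therefore gave 0.88 and 0.74 log2 units and the genes of the kinases above them 0.08 and 0.30. This difference between genes was not tested. Leaving out control L4 alone ended the calls of both effector kinases, as did leaving out control K1 or *Nae1* cKO L1 for *Chek1* and *Nae1* cKO L8 for *Chek2*.

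RPA is a complex of 3 subunits. *Rpa2*, the subunit that the checkpoint kinases phosphorylate, stood at 11.1, 12.1, 9.40 and 11.6 CPM in the control and 16.9, 22.2, 17.5 and 17.8 CPM in the *Nae1* cKO nerves, without overlap (log2 fold change 0.75, SE 0.13, edgeR adjusted p = 0.000853). *Rpa1*, the large DNA-binding subunit, stood at 51.8, 54.4, 51.5 and 60.4 CPM in the control and 60.1, 67.9, 73.6 and 65.7 CPM in the *Nae1* cKO nerves, where K2 lay just below control L9 (log2 fold change 0.29, SE 0.09, edgeR adjusted p = 0.0257). *Rpa3*, the small subunit, gave the same log2 fold change as *Rpa1*, 0.29, and did not pass (edgeR adjusted p = 0.109), although its groups did not overlap. The call on *Rpa1* was lost without any 1 of the nerves other than control L9 and *Nae1* cKO K2.

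TOPBP1 activates ATR, Claspin (*Clspn*) carries the signal from ATR to CHK1, and TIMELESS and TIPIN travel with the fork and stabilise it. *Topbp1* stood at 54.3, 62.5, 57.2 and 65.7 CPM in the control and 80.5, 116, 107 and 96.8 CPM in the *Nae1* cKO nerves, without overlap (log2 fold change 0.74, SE 0.11, edgeR adjusted p = 0.000375). *Tipin* stood at 14.0, 14.8, 12.8 and 17.9 CPM in the control and 20.5, 28.1, 27.7 and 24.7 CPM in the *Nae1* cKO nerves, also without overlap (log2 fold change 0.77, SE 0.13, edgeR adjusted p = 0.00110). *Clspn* (chr4:126556935-126593903, plus strand) rose from 9.57 to 12.9 CPM in the controls to 14.9 to 35.8 CPM (log2 fold change 1.17, SE 0.23, edgeR adjusted p = 0.00343). The RNAs of mediators on both sides of ATR were thus higher. *Timeless*, the partner of *Tipin*, gave 0.43 and did not pass (edgeR adjusted p = 0.141). Its *Nae1* cKO nerve K2 was at 11.6 CPM, below every control, and the other 3 were at 20.7 to 23.5 CPM, above every control. Without K2, and with the sample letter as a term, it passed the test.

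RAD18 is the ubiquitin ligase that marks PCNA at a blocked fork so that translesion polymerases can take over. *Rad18* (chr6:112619850-112696686, minus strand) had the smallest adjusted p of the 38. It stood at 13.5, 15.6, 13.9 and 16.4 CPM in the control and 28.3, 31.5, 30.5 and 27.3 CPM in the *Nae1* cKO nerves, and the rise of 1.98-fold was seen to a similar extent in all 4 *Nae1* cKO nerves (log2 fold change 0.99, SE 0.10, edgeR adjusted p = 2.19e-05). The damage signals *Parp1* and *H2afx* did not pass. *Parp1*, which senses DNA nicks, gave 0.02 (95% interval −0.16 to 0.19), and *H2afx*, the histone variant phosphorylated at breaks, gave 0.27 (−0.10 to 0.65).

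**Figure D2:**
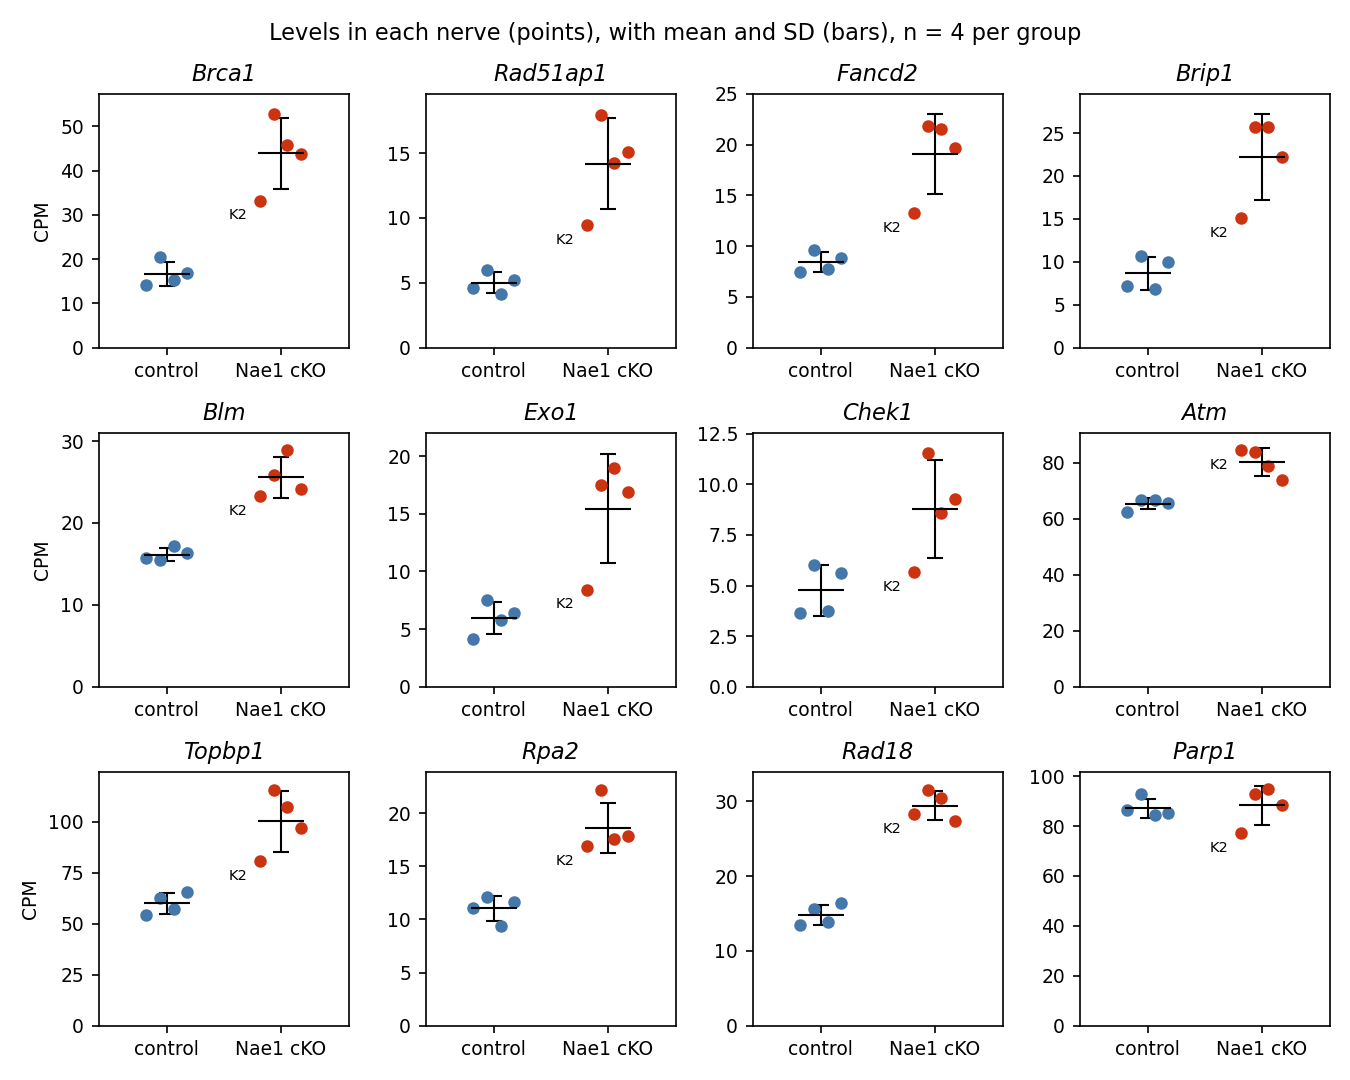
CPM in each nerve for 12 of the genes, blue for control and red for *Nae1* cKO, with the mean and SD of 4 nerves per group as black bars and each axis starting at 0. The *Nae1* cKO nerve K2 is marked: it lies well below its group in *Brca1*, *Rad51ap1*, *Fancd2*, *Brip1* and *Exo1*, but not in *Rad18*, *Atm* or *Blm*.

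The nerves within a group differed in the same way for most of the genes. K2 was the lowest of the *Nae1* cKO nerves in 29 of the 38 genes (76.3%) and in 20 of the 23 that rose, against 35.5% of all genes tested, and L1 was the highest in 27. *Rad18*, *Atm* and *Rad51b* were the 3 higher genes in which another nerve was lowest. Among the controls, L3 was the highest in 20, and K1 or L4 was the lowest in 28 (73.7%, against 48.3% of all genes tested). How often L1 or L3 was the highest of its group over all genes was not counted. The mean log2 CPM of the 38 genes was 3.51 to 3.71 in the controls, 3.86 in K2 and 4.24 to 4.41 in the other *Nae1* cKO nerves. Genes of DNA replication and mitosis moved with them. Of 33 DNA replication genes 26 were higher and 0 lower, with a median log2 fold change of 0.79. Of 28 mitosis genes 27 were higher and 0 lower, with a median of 1.03. K2 was the lowest *Nae1* cKO nerve in 31 of the 33 and in 27 of the 28. Examples are *Rrm1* (0.90), which makes deoxyribonucleotides, the helicase subunit *Mcm7* (0.97), the polymerase *Pola1* (1.04), and *Ttk* (1.07), *Mad2l1* (1.03) and *Kif2c* (1.22) of the spindle.

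The median log2 fold change of the 38 genes, 0.62, was below that of both lists. Their mean log2 CPM minus that of the replication genes was −0.09 to 0.02 in the controls and −0.30 to −0.03 in *Nae1* cKO nerves. Minus that of the mitosis genes it was −0.68 to −0.44 in the controls and −1.05 to −0.75 in *Nae1* cKO nerves, and these ranges did not overlap. How far the number of dividing cells enters the rise of the 38 genes was not tested.

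**Figure D3:**
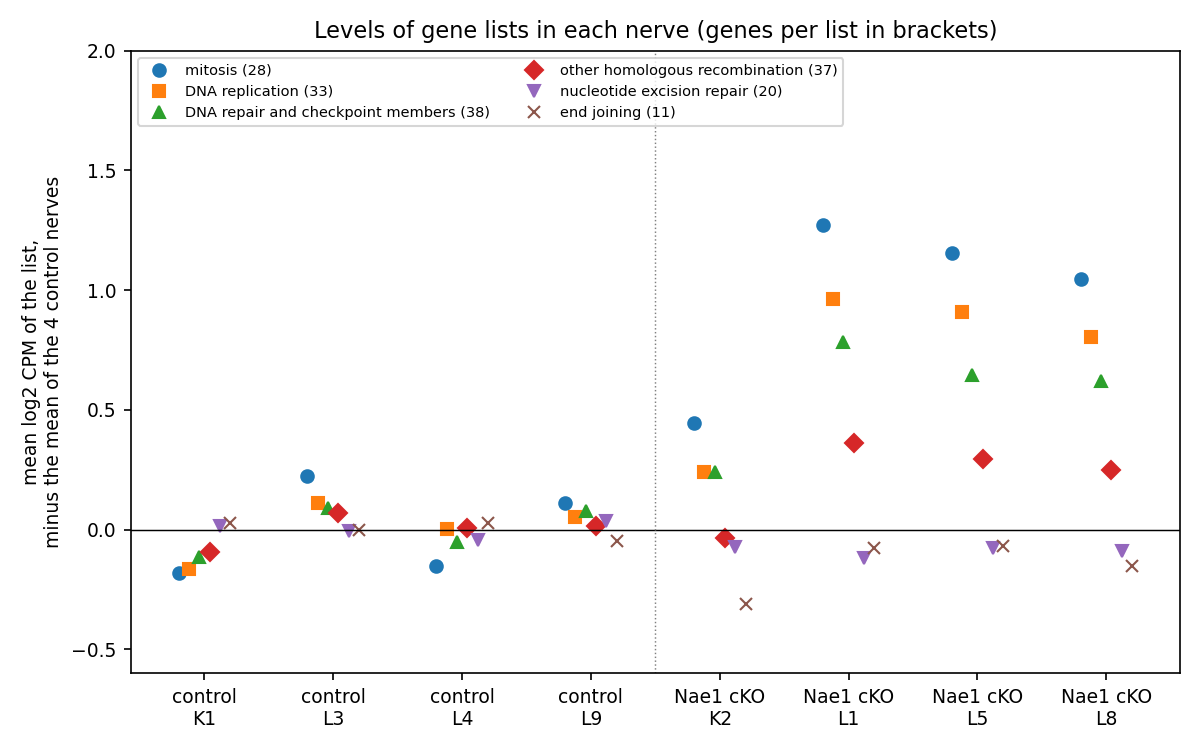
Mean log2 CPM of 6 gene lists in each of the 8 nerves, minus the mean of the 4 control nerves, with the number of genes per list in brackets. The 38 genes, DNA replication and mitosis are lower in K2 than in L1, L5 and L8 and above the controls in all 4 *Nae1* cKO nerves, while nucleotide excision repair and end joining lie below 0 there.

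Markers of other cells also differed between the groups. Of 15 macrophage markers 11 were higher and 0 lower. Their summed level was 266 to 300 CPM in the controls and 457 to 595 CPM in *Nae1* cKO nerves. The sum was highest in K2, which was the lowest of the *Nae1* cKO nerves in most of the 38 genes. Of 13 skeletal muscle markers 4 were lower and 0 higher, and at an unadjusted edgeR p under 0.05 all 13 were lower, with a median log2 fold change of −2.68. Their summed level was 1336 CPM in control K1 and 2190 CPM in control L4, 136 and 376 CPM in the other controls, and 66.9 to 187 CPM in *Nae1* cKO nerves. Of 10 fibroblast markers 4 were higher (15777 to 19919 CPM against 19590 to 22015 CPM), and of 10 endothelial markers 3 were lower (282 to 349 CPM against 220 to 266 CPM). Of the 9 Schwann cell markers 1 was higher and 4 were lower, and their mean log2 CPM was 7.99 to 8.20 in the controls and 7.60 to 7.86 in *Nae1* cKO nerves, without overlap. No marker of these 5 lists was at 0 in any nerve. Of the other lists, 10 leukocyte, 5 erythroid and 5 adipocyte markers, 3 each could be tested and 0 passed. Among them 5 leukocyte, 2 erythroid and 2 adipocyte markers were at 0 in at least 1 nerve. The libraries were made with a Ribo-Zero Globin kit, so low counts of globin genes among the erythroid markers do not measure blood content. The part of these cell types in the rise of the 38 genes was not tested, except that the counts without K1 and L4 are given above.

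Other genes of DNA repair numbered 147 in 9 lists. Of 145 tested, 29 (20.0%) were higher and 8 lower, against 14.1% and 12.3% of all genes tested. Their median log2 fold change was 0.06. Of 37 other homologous recombination genes 9 were higher and 1 lower, led by the nuclease *Dna2* (1.12), the fork protein *Mms22l* (0.94) and *Eme1* (1.10), a subunit of the MUS81 nuclease. *Tonsl*, the partner of *Mms22l*, was lower at −0.33, and in neither gene did the groups overlap. Of 10 other Fanconi anemia genes 4 were higher and 1 lower, among them the deubiquitinase of the clamp *Usp1* (0.50), *Rfwd3* (0.46) and the core subunit *Fancf* (0.58), against *Faap20* (−0.45). Of 21 other checkpoint genes 8 were higher and 0 lower, among them *Wdhd1* (1.04), the kinase *Wee1* (0.86) and the phosphatase *Cdc25c* (1.20). Genes of opposing action, a kinase that holds back mitosis and a phosphatase that releases it, were both higher.

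The remaining pathways moved less or in both directions. Of 22 base excision and single-strand break repair genes 4 were higher and 1 lower, with the flap nuclease *Fen1* (0.89), the glycosylases *Neil3* (1.02) and *Mbd4* (0.67), and polymerase *Polb* at −0.36. Of 6 other mismatch repair genes 1 was higher and 2 lower, with *Pms2* at 0.44 and *Mlh3* at −0.43. Of 11 end joining genes 1 was higher, the theta polymerase *Polq* (0.95), and 1 lower, the ligase partner *Xrcc4* (−0.42), with a median of −0.19. At an unadjusted p under 0.05, 2 of the 11 were higher and 5 lower, against 19.4% and 17.9% of all genes. In 4 of the 11 all *Nae1* cKO nerves lay below all controls (13.7% of all genes). Of 20 nucleotide excision repair genes 0 were higher and 2 lower, against 14.1% and 12.3% of all genes tested. The 2 were *Ercc6* (−0.45) and *Uvssa* (−0.47), both of the branch coupled to transcription. By the unadjusted p, 1 of these 20 was higher and 4 lower, against the same 19.4% and 17.9%. Of 2 direct reversal genes tested neither passed.

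In translesion synthesis and damage tolerance 2 of 16 genes were higher and 0 lower. *Ube2a*, which encodes the E2 enzyme that works with RAD18 on PCNA, stood at 18.2, 18.5, 17.4 and 18.5 CPM in the control and 50.4, 40.1, 49.9 and 48.4 CPM in the *Nae1* cKO nerves, with no overlap (log2 fold change 1.38, SE 0.10, edgeR adjusted p = 1.21e-06). Like *Rad18*, it was raised in K2 as much as in the other *Nae1* cKO nerves. The polymerase *Polh*, which is recruited to ubiquitinated PCNA, gave 0.42 (edgeR adjusted p = 0.0257) with overlapping groups. *Ube2b*, the close copy of *Ube2a*, gave 0.18 and did not pass (edgeR adjusted p = 0.123). It was looked up after the value of *Ube2a* was seen.

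**Figure D4:**
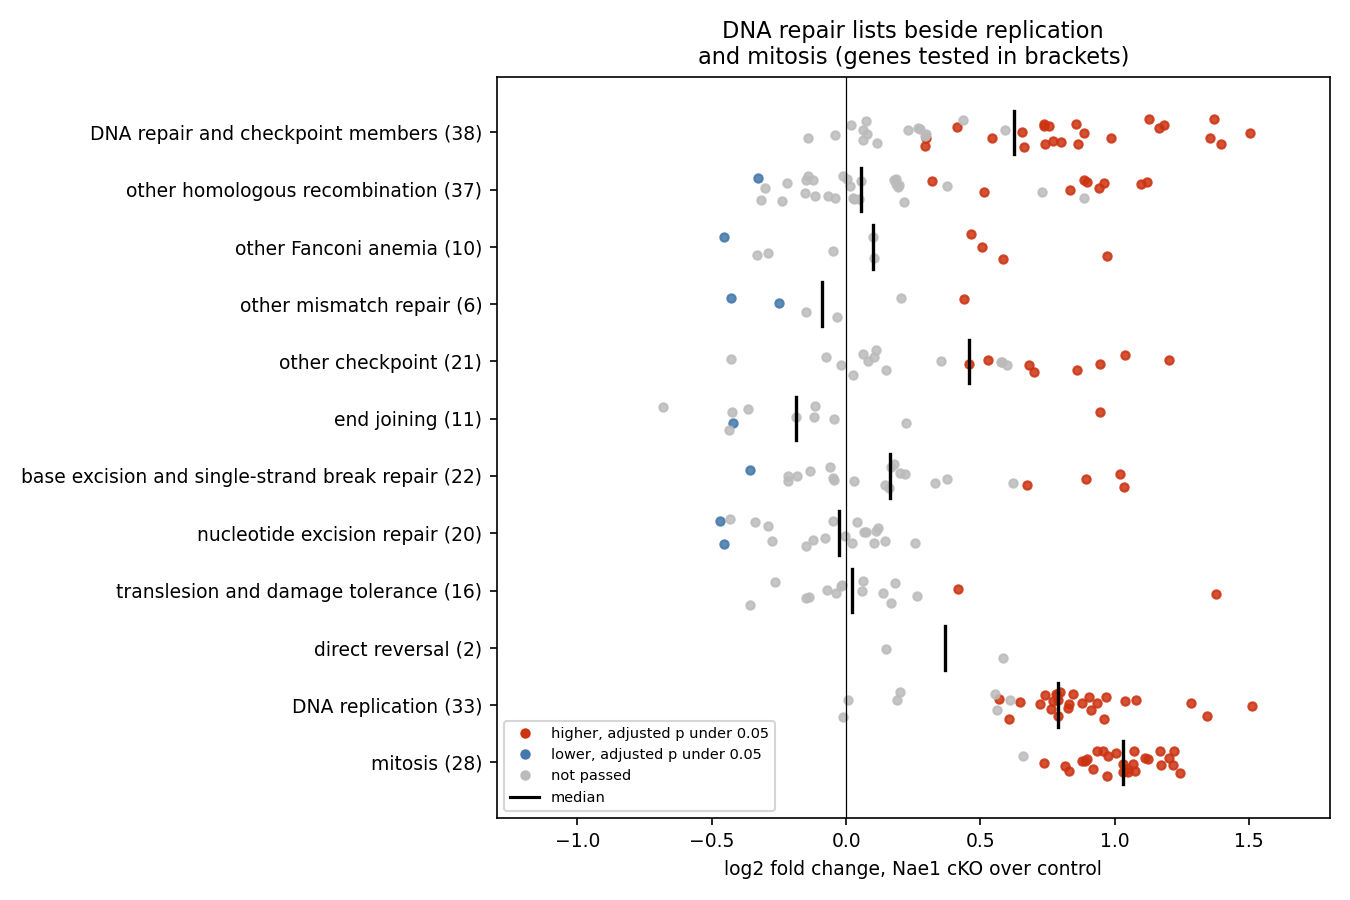
Log2 fold change of each tested gene (*Nae1* cKO over control) for the 38 genes, 9 other DNA repair lists and the replication and mitosis lists, with the median of each list as a black bar. Red points were higher and blue points lower at an adjusted p under 0.05. The median of the 38 genes is 0.62, that of the other repair lists together 0.06. All lists were chosen with earlier results of these data known.

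p53 is the transcription factor that the damage kinases stabilise. Of 19 of its target genes tested 4 were higher (21.1%) and 1 lower, against 14.1% and 12.3% of all genes tested. The receptor *Eda2r* ran from 0.795 to 2.68 CPM in control and from 7.89 to 8.92 CPM in *Nae1* cKO nerves (log2 fold change 2.21, SE 0.28, edgeR adjusted p = 0.000121). The apoptosis gene *Bax* (0.50) and the kinase *Plk3* (0.69) were also higher without overlap. *Cdkn1a*, the inhibitor p21 of the cell cycle, moved the other way. It stood at 36.0, 29.8, 59.3 and 26.2 CPM in the control and 19.3, 10.1, 13.1 and 13.7 CPM in the *Nae1* cKO nerves, without overlap (log2 fold change −1.43, SE 0.29, edgeR adjusted p = 0.00576), and its highest control, L4, was also the nerve with the most muscle RNA. Of the 19 fold changes 16 were above 0, with a median log2 fold change of 0.32, and *Cdkn1a* was the 1 target called lower.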

How the data were processed

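Sciatic nerves of P7 mice were profiled by stranded total RNA sequencing after depletion of ribosomal RNA with a Ribo-Zero Globin kit. The 4 control and 4 *Nae1* cKO libraries were grouped by the genotype in the labels. The authors deposited 1 RSEM table per library with expected counts (estimated reads per gene, unscaled), TPM and FPKM, both scaled by the authors for transcript length and depth. GRCm38, RSEM, STAR and FastQC 0.11.5 appear in the submitters' processing notes, while the methods name TopHat and Cuffdiff, which need aligned reads and were not repeated. Gene positions are from GENCODE vM21.

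Expected counts were rounded, filtered by filterByExpr (17090 genes), scaled by TMM and compared with edgeR 4.0.16's robust quasi-likelihood test without covariates, adjusted over all genes by Benjamini-Hochberg. The 38 genes, the lists and the tests were chosen with earlier results of these data known. The text names all 38 genes, *Nae1* and, from each other list of repair, cycle or p53 genes, up to 3 with the smallest adjusted p in each direction. Values in every nerve are given for the 2 genes with the smallest adjusted p per role and for genes with 1 outlying nerve. Intervals are 95% intervals of the edgeR estimate. *Hrob* had no row, and symbols with several identifiers (*Kif11*, *Pold4*, *Rad9a*) used the row with the highest mean. Alternatives, 21 in all, used DESeq2 1.42.0, limma 3.58.1 on counts (voom) and on log2 values of TPM (pseudocount 1) or FPKM (pseudocount 1 or 0.1), other scalings and filters, and other sets of nerves. At these depths the 38 genes had at least 14 counts in every nerve. A few items, among them the driver of the Cre transgene and some listed genes, are not reported here.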

Additional observations from a re-analysis of the deposited data

Results flagged for a closer look

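Among the 78 sets of 4 nerves examined (the 38 genes and *Nae1* in each group), 2 held a nerve far from the other 3, where chance gives about 1 in 20. For *Bard1* it was the mutant nerve K2, at 8.88 CPM, while the rest of its group lay between 12.9 and 13.7 CPM. For *Fanci* it was control L3, at 9.34 CPM, while the rest lay between 5.19 and 5.88 CPM. Both genes were higher in *Nae1* cKO nerves with the nerve kept in.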

How the results depend on the processing

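Of the 23 higher genes, 8 passed under all 21 alternatives (*Brca1*, *Rad51ap1*, *Fancd2*, *Brip1*, *Blm*, *Exo1*, *Topbp1* and *Rad18*), 15 lost the call under at least 1 and 0 changed sign. With library totals, 11 of the 38 genes changed over 2-fold, 3875 genes were higher and 1255 lower among all genes tested, and of the other repair genes 48 were higher and 2 lower. Library totals shifted the median of all genes by 0.16 on the log2 scale. Without control K1 and L4, 11 of the 38 were higher, 1273 genes were higher and 1129 lower, and 10 and 3 of the other repair genes, with fewer samples in the fit. With limma on TPM, 12 of the 38 were higher and 4 changed over 2-fold, 1297 genes were higher and 424 lower, of the other repair genes 14 were higher and 0 lower, and *Nae1* was at −0.44 (limma adjusted p = 0.266). On FPKM, 1035 (pseudocount 1) or 1029 (0.1) genes were lower and 0 other repair genes. With the letter of the sample name as a term 16 other repair genes were lower. Leaving out 1 nerve gave 1939 to 2723 higher and 1644 to 2504 lower genes in all, 18 to 26 higher genes of the 38, 6 to 9 over 2-fold and 5 to 11 other repair genes lower.

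The 6 genes that changed sign under an alternative had not passed the test. *Xrcc3* was at 0.11 with library totals, 0.052 without control K1 and L4, 0.10 and 0.11 on FPKM (pseudocounts 1 and 0.1), 0.077 on TPM, and −0.15 to 0.037 with 1 nerve left out. *Fancg* was at 0.013 with library totals. *Brca2* was at −0.019 without control K1 and L4 and at −0.023 (without *Nae1* cKO L1) to 0.11 with 1 nerve left out. *Parp1* was at −0.016 without control K1 and L4 and at −0.017 to 0.069 with 1 nerve left out. *Rad51c* was at −0.024 with limma-voom and at −0.11 to 0.32 with 1 nerve left out, and *Atrip* at −0.011 to 0.13. The causes of these changes were not tested. Within the 250 bases before the start, the E2F element was found in 5 and the CHR element in 1 of 32 promoters. No paired analysis was possible because control and *Nae1* cKO libraries share no replicate number in the labels.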
